A study of Mus musculus with 15 samples.

Results

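Lin28a, Lin28b, Hmga2, Igf2bp1, Igf2bp2, Igf2bp3 and Trim71 were followed over sections of mouse embryos at embryonic days 10, 11 and 12 (E10, E11 and E12). They are 7 of the 30534 features counted in the series, picked by name as the LIN28 genes and well known targets of the let-7 microRNAs. Earlier results of these data were known when the genes were picked, so the choice was not blind to them. All 7 had counts in all 11 transcript libraries. Each library came from 1 section on which crossing microfluidic channels had laid down pairs of DNA barcodes, so that every crossing is a pixel with its own transcript counts. There were 3 libraries of E10 with pixels of 50 µm, 1 of E10 with 25 µm, 2 of E10 with 10 µm, 2 of E11 with 25 µm, 2 of E11 with 10 µm and 1 of E12 with 50 µm. All embryos had been frozen in embedding medium directly after dissection and cut into thin sections. Strain, genotype, sex and treatment are not named in the labels, nor are the embryo and the region of the body behind each section. The p-values below therefore measure the spread between these sections, which may be technical. A pixel can hold several cells or parts of cells, so fewer cells that express a gene and less RNA per cell cannot be told apart.

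LIN28A and LIN28B are RNA-binding proteins of early embryos and stem cells. They bind let-7 precursors, through a GGAG motif near the end of the precursor loop, and block their maturation, while mature let-7 silences messengers that carry sites opposite its seed, the messengers of both LIN28 genes among them. As tissues differentiate, mature let-7 is known to rise and its targets to decline. Among the targets, Hmga2 encodes an architectural chromatin protein of proliferating embryonic cells. Igf2bp1, Igf2bp2 and Igf2bp3 encode a family of RNA-binding proteins that control the stability and translation of messengers. Trim71, the counterpart of the nematode gene lin-41, encodes an RNA-binding ubiquitin ligase. Mature microRNAs were not measured in these libraries. Lin28a, Hmga2, Igf2bp1, Igf2bp3 and Trim71 overlap an annotated gene on the opposite strand (Gm13061, 1700006J14Rik, Gm29202, Malsu1 and C130032M10Rik), and since the use of strand in the counting is not given in the sources used here, reads of each pair cannot be told apart.

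The seed is what joins the targets, so 4 mature let-7 sequences are shown first, 5′ to 3′, from RefSeq (GRCm38.p6), with the seed (bases 2 to 8) in capitals.
let-7a-5p: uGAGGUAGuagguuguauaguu
let-7d-5p: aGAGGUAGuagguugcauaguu
let-7g-5p: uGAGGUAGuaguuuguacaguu
miR-98-5p: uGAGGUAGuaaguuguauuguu
These share the seed GAGGUAG and differ only outside it. Of the 11 mature sequences of the family in the table, 10 had this seed, and let-7j had GAGGUAU.

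The precursors are shown because LIN28 acts on them. The hairpin of let-7g (GRCm38.p6, chr9:106178840-106178927, plus strand) holds GGAG, in capitals, between its arms, and that of let-7b (chr15:85707319-85707403, plus strand) does not.
let-7g hairpin: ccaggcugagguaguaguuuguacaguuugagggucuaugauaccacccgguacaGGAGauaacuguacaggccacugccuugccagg
let-7b hairpin: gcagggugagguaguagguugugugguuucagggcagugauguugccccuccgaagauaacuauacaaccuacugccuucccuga
GGAG lay between the arms in 8 of the 11 let-7 family hairpins that could be assessed. It did so in 16 of all 644 mouse hairpins with 2 annotated arms, or 2.48%, the 8 included.

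In the 3′ UTRs the letters opposite the seed are CTACCTC, searched on the transcript strand only. The first such match of each gene is shown with its neighbouring bases, read from GRCm38 with GENCODE M21, all on the minus strand and all in the last exon. Capitals mark the 7 bases opposite the seed.
Lin28a (chr4:134005190-134005196, exon 4 of 4): gcacagcctgttgaaCTACCTCatttttgc
Lin28b (chr10:45381023-45381029, exon 5 of 5): acccgggcgggaagtCTACCTCatgcaagc
Hmga2 (chr10:120364225-120364231, exon 6 of 6): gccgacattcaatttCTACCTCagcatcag
Igf2bp1 (chr11:95961779-95961785, exon 15 of 15): gctgtgcgaagtaaaCTACCTCaaggtgtg
Igf2bp2 (chr16:22059474-22059480, exon 16 of 16): acacacaaataaaagCTACCTCaggtgttt
Igf2bp3 (chr6:49086788-49086794, exon 15 of 15): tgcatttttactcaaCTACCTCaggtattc
Trim71 (chr9:114512473-114512479, exon 4 of 4): aacattgcctaagtcCTACCTCagcttaaa
Every one of these 7 matches is followed by an A. The longest annotated 3′ UTRs of Lin28b, Hmga2, Igf2bp1 and Trim71 held 4 matches each, that of Lin28a held 2, and those of Igf2bp2 and Igf2bp3 held 1 each. Of 21020 genes with an annotated 3′ UTR, 9.02% held at least 1 match and 12 genes held 4 or more, 4 of them members. Among 3′ UTRs within 25% of the same length, the share with at least as many matches was 0.138% for Hmga2, 0.238% for Lin28b, 0.264% for Igf2bp1, 0.481% for Trim71 and 1.95% for Lin28a. It was 11.5% for Igf2bp2 and 12.9% for Igf2bp3. The genes were chosen as let-7 targets, so these matches describe them and are no finding. Trim71 alone of the 7 had 4 matches that were all followed by an A, and its last 2 lie close together, at bases 3591 and 3617 of the 3′ UTR.
Trim71, match 3 (chr9:114509048-114509054): tttagtatggattttCTACCTCaattttgg
Trim71, match 4 (chr9:114509022-114509028): ttggcaaaaagttgtCTACCTCacgtcggc

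The libraries held 1563489 to 11998765 counts over 829 to 2271 tissue pixels, and a median of 843.5 to 11330 counts per tissue pixel. Tissue pixels were those with at least 0.1 of the 95th percentile of the counts per pixel. The sections differed in make-up. The liver gene list, fetal liver genes such as Afp and Alb, summed to 3.88 to 7.71 CPM (counts per 1000000 tissue counts) at E10 and to 58.0 to 3755 CPM at E11 and E12. The neuron gene list was lowest in E11 10 µm replicate 2, at 209.7 CPM, and highest in E10 50 µm replicate 3, at 2992 CPM. The red cell gene list, mostly globin genes, reached 89590 CPM at E12, against 14940 to 32830 CPM in the other 10 libraries. Transcripts of 4 Y-linked genes stood at 122 to 173 CPM in the E10 libraries and 242 CPM at E12, but at 0 to 0.365 CPM in the 4 E11 libraries. The stage change from E10 to E11 and the sex of the embryos therefore cannot be told apart.

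From E10 to E12, at 50 µm, Lin28a fell 8.42-fold and was the single member called, while Hmga2 stood higher and the other 5 genes stood lower without passing the test. Counts were summed over tissue pixels and tested with edgeR's quasi-likelihood test on all 11 libraries, with Benjamini-Hochberg adjustment over 18233 genes and a threshold of 0.05. In this comparison 390 of 18233 genes were called, or 2.14%, of which 39 were lower, or 0.214%. Against this, 1 of the 7 members was called, and it was lower. All 7 E12 values lay outside the range of the 3 E10 libraries, 6 below and 1 above, but 62.9% of all tested genes did so against this single E12 library. The median log2 fold change was -1.02 over the 7 members and -0.04 over all genes tested. Since E12 had 1 library, its spread was taken from the other groups in the fit.

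Lin28a stood at 9.34, 6.32 and 15.2 CPM in the 3 E10 50 µm libraries, and at 12.2, 7.75 and 8.30 CPM in the 25 µm and the 2 10 µm libraries of E10. At E11 it stood at 10.3 and 10.6 CPM with 25 µm pixels and at 12.8 and 9.48 CPM with 10 µm pixels. At E12 it stood at 1.23 CPM, from 8 counts in 6499879, with an exact Poisson 95% interval of 0.531 to 2.43 CPM that covers counting error only. The E12 library was below all 10 others, and the E10 and E11 libraries overlapped. The log2 fold change from E10 to E12 was -3.08 with a standard error of 0.66 and an adjusted p of 0.0321 (edgeR). The call was lost without E10 50 µm replicate 1 (adjusted p 0.0825), without E10 50 µm replicate 3 (0.112), and without E11 25 µm replicate 1 (0.0706) or 2 (0.0729). It held in the other 15 of 19 alternatives, among them DESeq2 (adjusted p 0.00634) and the fit with globin genes left out (0.0333, edgeR).

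Lin28a was higher in neuron gene-rich pixels, as described further on, and the neuron gene list stood at 888 CPM at E12 and at 1917 to 2992 CPM in the 3 E10 50 µm libraries. Its part in the stage difference was not tested. Within the neuron gene-rich pixels alone, Lin28a stood at 1.41 CPM at E12, from 1 count, and at 21.3, 10.9 and 27.1 CPM in the 3 E10 libraries. Outside them it stood at 1.21 CPM at E12 and at 8.08, 5.75 and 14.1 CPM at E10. The E12 library was thus lowest in both kinds of pixel.

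Lin28b, the second LIN28 gene, was at 29.0, 28.8 and 34.0 CPM in the E10 50 µm libraries, at 35.8 CPM with 25 µm and at 35.9 and 27.2 CPM with 10 µm. It was at 11.8 and 18.5 CPM in E11 25 µm, at 30.3 and 22.3 CPM in E11 10 µm, and at 11.2 CPM at E12. The 2 E11 25 µm libraries and the E12 library were the lowest, and E11 10 µm overlapped with E10. The log2 fold change from E10 to E12 was -1.49 (standard error 0.40, adjusted p 0.0838, edgeR), which missed the threshold. It passed with DESeq2 (adjusted p 0.0455), with no filter on low counts (0.0335, edgeR) and without either E11 10 µm library (0.0485 and 0.0480, edgeR).

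Hmga2 was the single member above the E10 range at E12. It stood at 395, 724.9 and 480 CPM in the E10 50 µm libraries, at 704 CPM with 25 µm and at 484 and 646 CPM with 10 µm. At E11 it stood at 381 and 850.5 CPM with 25 µm and at 386 and 710 CPM with 10 µm, and at E12 it reached 1248 CPM. Libraries of 1 group differed about as much as groups did up to E11, and the E12 library was above all others. The log2 fold change from E10 to E12 was 1.17 (standard error 0.50), with an adjusted p of 0.301 (edgeR), and it was called in 0 of 19 alternatives. The mesenchyme and cartilage gene list also stood highest at E12, at 3920 CPM against 1094 to 1535 CPM in the E10 50 µm libraries. Its part in the difference was not tested. Within the mesenchyme and cartilage gene-rich pixels, Hmga2 stood at 1868 CPM at E12 and at 439, 686 and 813 CPM in the 3 E10 libraries (log2 fold change 1.53, adjusted p 0.0563, edgeR). That difference passed without E11 25 µm replicate 1 (adjusted p 0.0190) or replicate 2 (0.0228), and with no scaling beyond library totals (0.0450, edgeR).

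The 3 Igf2bp genes all stood below their E10 range at E12. Igf2bp1 was at 525, 499 and 650 CPM in the E10 50 µm libraries and at 214.5 CPM at E12. At the other widths it was at 913 CPM (E10 25 µm), 515 and 499.7 CPM (E10 10 µm), 842 and 735 CPM (E11 25 µm), and 735 and 387 CPM (E11 10 µm). The E11 libraries overlapped with those of E10, and E12 was the lowest library. Its log2 fold change to E12 was -1.42 (standard error 0.42, adjusted p 0.113, edgeR), called with DESeq2 (adjusted p 0.0150) and with no filter on low counts (0.0356, edgeR).

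Igf2bp2 was at 176, 154 and 197 CPM in the E10 50 µm libraries and at 127 CPM at E12, a log2 fold change of -0.50 (adjusted p 0.526, edgeR). The other libraries lay between 148 and 204 CPM, except for E10 25 µm at 303 CPM. Igf2bp3 was at 285, 312 and 331 CPM in the E10 50 µm libraries and at 214 CPM at E12, a log2 fold change of -0.57 (adjusted p 0.500, edgeR). With 25 µm Igf2bp3 was at 281 CPM in E10 and at 158 and 237 CPM in E11, and with 10 µm at 265 and 254 CPM in E10 and at 235 and 188 CPM in E11. Trim71 was at 23.9, 14.8 and 20.8 CPM in the E10 50 µm libraries and at 10.0 CPM at E12, a log2 fold change of -1.02 (adjusted p 0.283, edgeR). In E11 it was at 37.3 and 32.3 CPM with 25 µm and at 28.8 and 20.4 CPM with 10 µm, above or within the E10 range of 14.8 to 35.8 CPM.

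**Figure D1:**
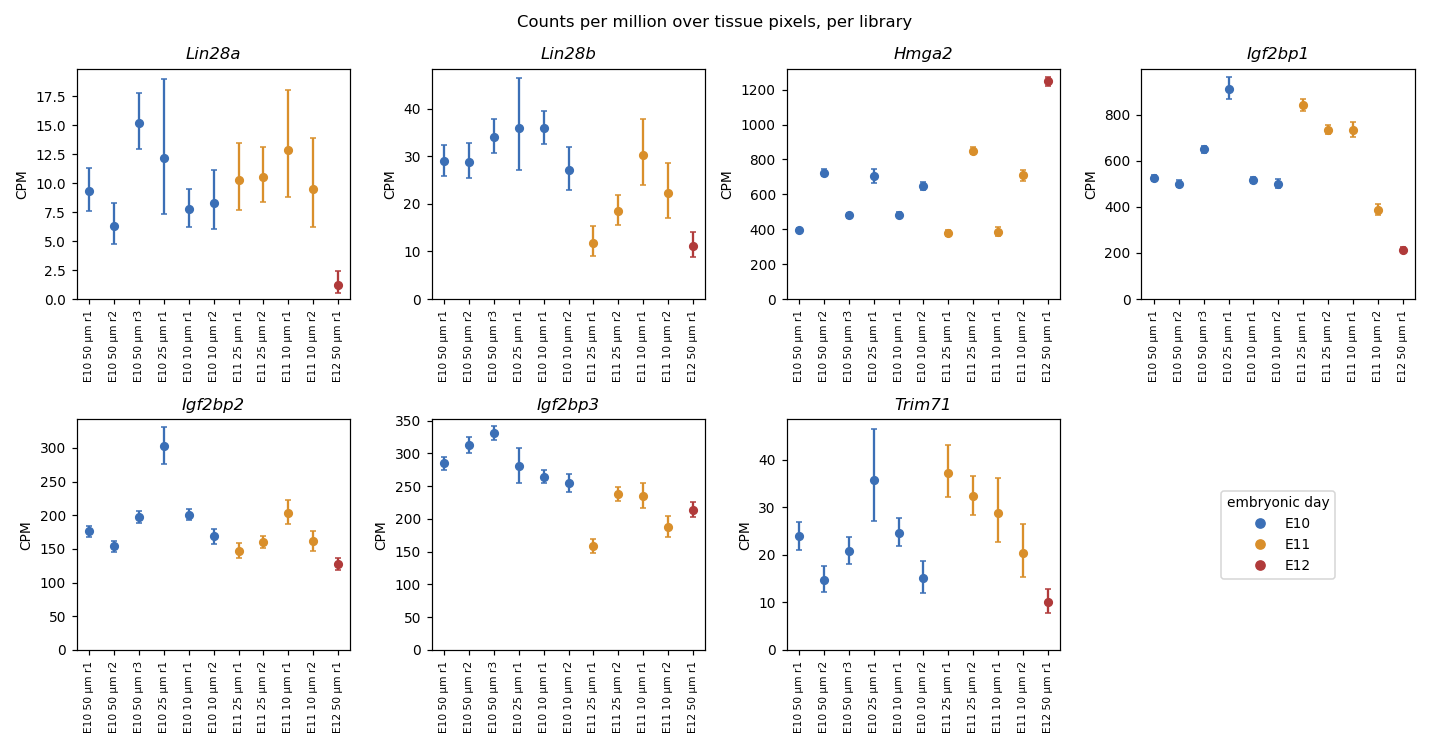
CPM over tissue pixels of each gene (y axis, linear, from 0) in the 11 libraries (x axis: stage, pixel width and replicate), with exact Poisson 95% intervals of the count. Lin28a is lowest and Hmga2 highest in the E12 library, while E10 and E11 overlap for most genes.

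From E10 to E11, 0 of the 7 members were called by edgeR in any of 3 fits, with both widths pooled, with 10 µm alone or with 25 µm alone. The called share of all 18233 genes was 3.6% in the pooled fit, 3.33% with 10 µm and 0.455% with 25 µm. DESeq2 also called 0 members in each fit. At an unadjusted p under 0.05 (edgeR), 1 member (Lin28b) passed over both widths, 0 at 10 µm and 2 (Lin28b and Igf2bp2) at 25 µm. Of all 18233 genes, 4217, 3682 and 2516 passed at that cutoff. In the pooled fit the log2 changes of the 6 members other than Lin28b were 0.22 for Lin28a, -0.02 for Hmga2, 0.06 for Igf2bp1, -0.40 for Igf2bp2, -0.31 for Igf2bp3 and 0.23 for Trim71. The change of Lin28b was -0.66 over both widths (log2, 95% interval -1.21 to -0.10, adjusted p 0.152, edgeR), -1.03 at 25 µm and -0.29 at 10 µm. Igf2bp2 changed by -0.76 at 25 µm, where E10 had 1 library, and by -0.04 at 10 µm. The intervals were wide: that of Hmga2 at 10 µm ran from -1.05 to 0.93 and that of Lin28a from -0.52 to 1.43. Any change within those bounds is compatible with these libraries. At 25 µm the E11 libraries of 5 members lay outside the single E10 value in unscaled CPM, as did those of 76.4% of all genes. With the scaling of the fit (TMM), 2 of these 5 lay on either side of it. They were Lin28a, at 11.33 and 11.07 against 11.28 CPM, and Igf2bp1, at 930 and 771 against 847 CPM. At 10 µm the E11 libraries of 2 members (Lin28a above, Igf2bp3 below) did not overlap with E10, against 49.2% of all genes. The stage changes at the 2 widths differed from each other in 0.137% of genes and in 0 members (edgeR). For this difference 0 members and 1540 of 18233 genes had an unadjusted p under 0.05.

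Libraries of 1 stage that differed in pixel width served as a gauge of the spread. Between 10 µm and 50 µm at E10, 0 members were called (0.11% of genes). Between 10 µm and 25 µm at E11, 0 were also called (2.07% of genes, edgeR). At an unadjusted p under 0.05, 0 members passed in either, against 1978 and 2094 of 18233 genes. The largest of these member differences was 0.67 on the log2 scale, for Lin28b at E11.

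**Figure D2:**
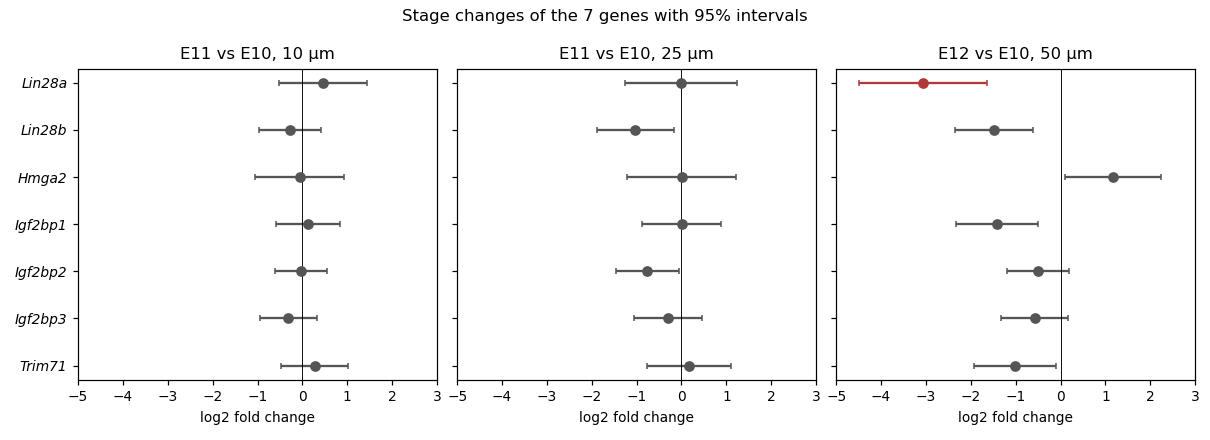
Log2 fold changes of the 7 genes (x axis) with 95% intervals from edgeR in 3 stage comparisons, red where the adjusted p was under 0.05. Lin28a from E10 to E12, at -3.08, is the single red point.

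The place of each gene in the tissue was read from 7 gene lists. In each library the 10% of tissue pixels with the highest share of a list's counts were called its gene-rich pixels, and each gene was compared inside and outside them by edgeR with library as a block. Libraries were used where the list's score was spatially clustered, and the list's own genes were left out. Of the 7 members, 3 were called in neuron gene-rich pixels, 3 in liver gene-rich pixels, 2 in heart muscle gene-rich pixels and 1 each in the other 4 classes. The share of all genes called was 31.9% in the neuron class, 19% in liver, 14.9% in mesenchyme and cartilage, 11.9% in red cell, 11.6% in heart muscle, 10.1% in neural progenitor and 3.54% in epithelium. A count of 1 of 7 is near the share of all genes in the mesenchyme and cartilage, red cell and neural progenitor classes, and the neuron class, with 3 of 7, has the highest such share.

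**Figure D3:**
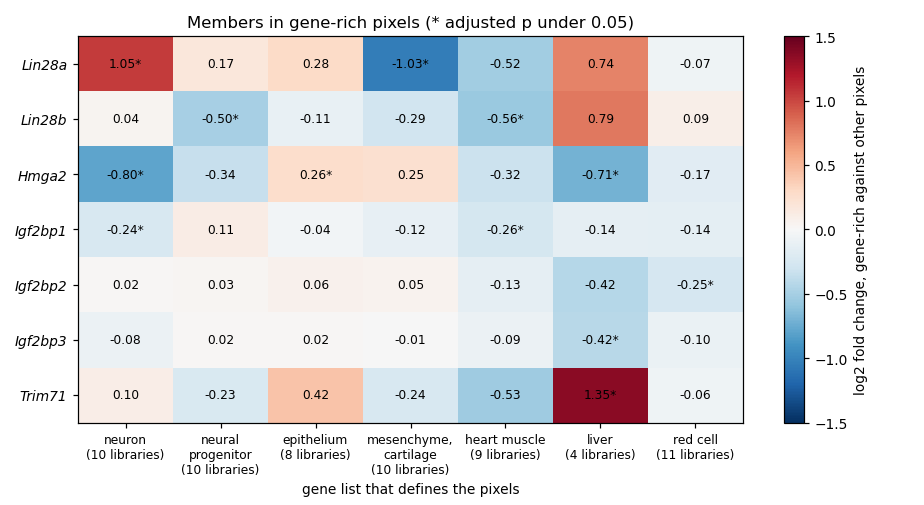
Log2 fold change of each gene (rows) between gene-rich and other tissue pixels for 7 gene lists (columns, with the number of libraries), with an asterisk where the adjusted p was under 0.05 (edgeR). Lin28a in neuron gene-rich pixels (1.05) and Trim71 in liver gene-rich pixels (1.35) are the highest starred values.

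Neuron gene-rich pixels held more Lin28a and less Hmga2 and Igf2bp1 than the rest of the tissue in all 10 libraries used. Lin28a rose 2.07-fold in them, from 8.54 ± 3.49 to 17.9 ± 9.23 CPM (SD, n = 10 libraries), with a log2 fold change of 1.05 (standard error 0.19, adjusted p 6.11e-05, edgeR). Its CPM ran from 1.41 to 32.4 with a median of 19.8 inside, and from 1.21 to 14.1 with a median of 8.74 outside. The 2 smallest differences, also as ratios, were those of E12, with 1 count inside, and of E10 10 µm replicate 2, at 9.30 against 8.19 CPM. Lin28b, the close paralog, had a log2 fold change of 0.04 (95% interval -0.25 to 0.33, adjusted p 0.874, edgeR) and was higher inside in 4 of 10 libraries.

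Hmga2 was 1.74-fold lower in neuron gene-rich pixels, at 385 ± 154 against 657 ± 293 CPM (SD, n = 10 libraries; adjusted p 0.00502, edgeR). Its median was 386 CPM inside and 580 CPM outside. As a ratio, the difference was widest in the E10 50 µm libraries, at 167 against 419, 275 against 780 and 213 against 507 CPM, and at E12, at 612 against 1326 CPM. It was narrow in E11 10 µm replicate 1, at 375 against 387 CPM, and in E10 10 µm replicate 2, at 590 against 653 CPM. Igf2bp1 was 1.18-fold lower (log2 fold change -0.24, standard error 0.05, adjusted p 0.000387, edgeR), with medians of 491 CPM inside and 603 CPM outside. These 3 calls held in 15 of 15 alternatives. Igf2bp2, Igf2bp3 and Trim71 had log2 fold changes of 0.02, -0.08 and 0.10 and were not called.

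The neuron gene-rich pixels also held more of the neural progenitor list in 10 of 10 libraries, less of the epithelium list in 10 of 10 (higher in 0), and more of the mesenchyme and cartilage list in 1 of 10. Their median depth was 0.801 to 1.16 times that of the other pixels. The part of these lists in the differences was not tested. In neural progenitor gene-rich pixels, which overlap 10.7 to 32.5% of the neuron class, Lin28a had a log2 fold change of 0.17 and Hmga2 of -0.34 (adjusted p 0.752 and 0.171, edgeR). There Lin28b was the 1 member called, at -0.50 (adjusted p 0.0425, edgeR), with a median of 15.2 CPM inside and 29.7 CPM outside. That call held in 5 of 15 alternatives and was lost without any of 8 of the 10 libraries (adjusted p 0.0531 to 0.101).

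**Figure D4:**
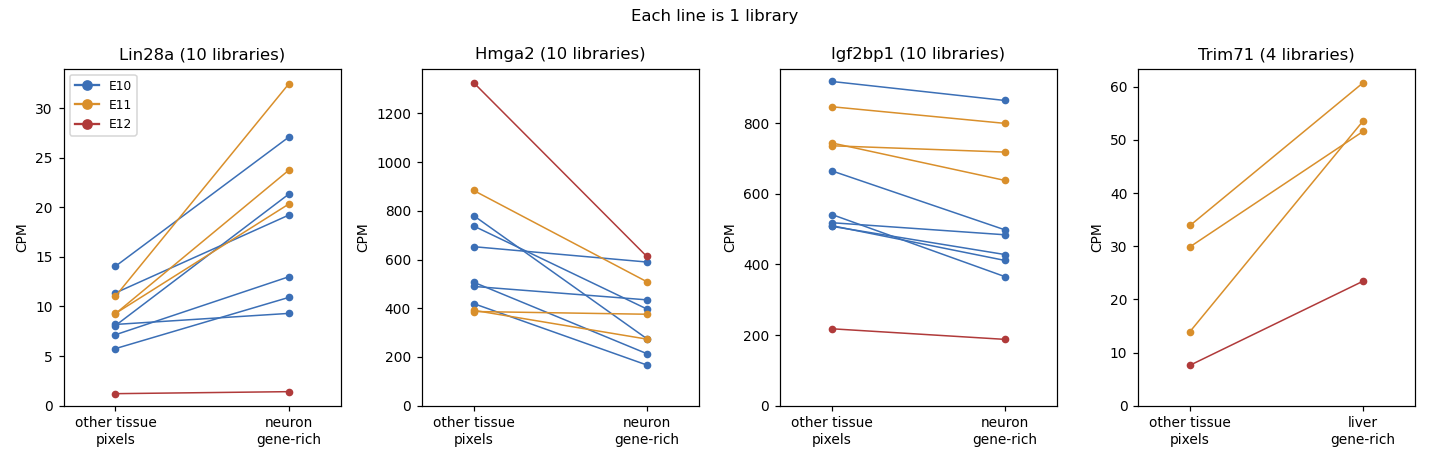
CPM (y axis, from 0) in other tissue pixels and in gene-rich pixels for Lin28a, Hmga2 and Igf2bp1 (neuron list) and Trim71 (liver list), 1 line per library, coloured by stage. Lin28a lines go up and Hmga2 and Igf2bp1 lines go down in all 10 libraries, and Trim71 lines go up in all 4.

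Liver gene-rich pixels, present in 4 libraries of E11 and E12, held more Trim71 and less Hmga2 and Igf2bp3. Trim71 was at 60.8, 51.6, 53.6 and 23.4 CPM inside and at 33.9, 29.9, 14.0 and 7.61 CPM outside in E11 25 µm replicates 1 and 2, E11 10 µm replicate 2 and E12. It was higher inside in 4 of 4 libraries, 2.55-fold on the fitted scale (log2 fold change 1.35, standard error 0.26, adjusted p 0.00328, edgeR). At E12 the liver gene-rich pixels, 154 of 1535 tissue pixels, held 23 of the 65 Trim71 counts and 30 of the 73 Lin28b counts of the section. These pixels were also deeper, with a median of 5266 counts against 3387 in the others, so their share of all counts exceeds their share of pixels. The call held in 8 of 9 alternatives and ended when all 11 libraries were used, in 7 of which the liver list was not spatially clustered (adjusted p 0.362, edgeR).

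Hmga2 was at 293, 622, 460 and 422 CPM inside and at 394, 879, 758 and 1395 CPM outside in the same 4 libraries (log2 fold change -0.71, adjusted p 0.0267, edgeR). Igf2bp3 was at 111, 185, 161 and 117 CPM inside and at 165, 244, 193.5 and 231 CPM outside (log2 fold change -0.42, adjusted p 0.0349, edgeR). All 4 libraries pointed the same way for both in CPM without scaling. On that scale the median of all genes in this class was lower than with scaling, as given further on. The share of all genes lower in 4 of 4 libraries was not counted. Igf2bp3 lost the call without E11 25 µm replicate 1 (adjusted p 0.131), without replicate 2 (0.133) and without E12 (0.0909), and Hmga2 without E11 10 µm replicate 2 (0.0667), all in edgeR. Igf2bp3 also lost it with the top 5% of pixels (0.0697) and at the 0.3 pixel threshold (0.0665), Hmga2 with the top 20% (0.1035), and both with all 11 libraries (0.557 and 0.310), so that the calls held in 3 and 6 of 9 alternatives. Lin28a and Lin28b had log2 fold changes of 0.74 and 0.79 in liver gene-rich pixels (adjusted p 0.244 and 0.186, edgeR), and neither passed the test. Lin28a was above the other pixels in 4 of 4 libraries and Lin28b in 3 of 4, the widest gap of Lin28b being at E12, at 30.6 against 7.79 CPM.

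The red cell list was higher in liver gene-rich pixels in 3 of the 4 libraries, up to 188400 against 72010 CPM at E12, the epithelium list was higher in 4 of 4, and the mesenchyme and cartilage list was lower in 4 of 4. Median depth in these pixels was 1.13 to 1.97 times that of the others. The part of these lists in the liver results was not tested. In red cell gene-rich pixels of all 11 libraries, Trim71 had a log2 fold change of -0.06 (adjusted p 0.902, edgeR) and Igf2bp2 was the 1 member called, at -0.25 (adjusted p 0.0255), lower in 11 of 11 libraries. Igf2bp1 was also below the other pixels in 11 of 11 libraries, at -0.14 (adjusted p 0.0685, edgeR), and was called in 6 of 15 alternatives. Both tallies of 11 libraries are of CPM without scaling. On that scale the median of all genes in this class was lower than with scaling, as given further on. The share of all genes lower in 11 of 11 libraries was not counted, so whether the tallies are particular to these 2 genes is not known. With the top 20% of pixels and at the 0.3 pixel threshold Igf2bp1 was called (0.0343 and 0.0441) and Igf2bp2 was not (0.1105 and 0.104, edgeR). The Igf2bp2 call held in 8 of 15 alternatives and was lost without any 1 of 5 libraries, E10 50 µm replicate 1, E10 10 µm replicate 2, both of E11 25 µm and E12 (adjusted p 0.0560 to 0.0697, edgeR).

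In epithelium gene-rich pixels Hmga2 was 1.2-fold higher (log2 fold change 0.26, standard error 0.06, adjusted p 0.00772, edgeR), and higher in 7 of 8 libraries. Its median was 619 CPM inside and 470 CPM outside, and E10 50 µm replicate 2 was the exception, at 679 against 729 CPM. The other 6 members had log2 fold changes of -0.11 to 0.42 there, Trim71 the highest (adjusted p 0.136, edgeR). In mesenchyme and cartilage gene-rich pixels Lin28a was called lower, at -1.03 (adjusted p 0.0311, edgeR), on 19 counts inside in 10 libraries, and the call held in 7 of 14 alternatives. It was lost without any 1 of 5 libraries, E10 50 µm replicates 1, 2 and 3, E10 10 µm replicate 1 and E11 25 µm replicate 1 (adjusted p 0.0609 to 0.0934). Hmga2 there had a log2 fold change of 0.25 (adjusted p 0.116, edgeR), which passed without either E10 10 µm library (0.0283 and 0.0179). Median depth in the mesenchyme and cartilage gene-rich pixels was 0.490 to 1.04 times that of the others, with a median of 0.58 over libraries. The part of depth in these differences was not tested.

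In heart muscle gene-rich pixels Lin28b was called lower, at -0.56 (adjusted p 0.0464, edgeR), in 9 of 9 libraries, with a median of 18.9 CPM inside and 29.7 CPM outside. Igf2bp1 was called lower there too, at -0.26 (adjusted p 0.0347, edgeR), in 8 of 9 libraries. These calls held in 2 and 6 of 14 alternatives. Lin28b lost it without any 1 of 8 of the 9 libraries (adjusted p 0.0537 to 0.132) and Igf2bp1 without any 1 of 6 (0.0537 to 0.119, edgeR). Trim71 had a log2 fold change of -0.53 (adjusted p 0.154, edgeR), with medians of 14.2 CPM inside and 23.9 CPM outside. Median depth in the heart muscle gene-rich pixels was 0.429 to 1.42 times that of the others, with a median of 0.63 over libraries. Its part in these differences was not tested.

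Hmga2 had the clearest pattern over the tissue. Moran's I, the correlation of log2(counts per 10000 + 1) between adjacent pixels, ran from 0.101 to 0.475 for Hmga2 over the 11 libraries, and 0.368 to 3.82% of the genes seen in at least 5% of pixels were above it. For Igf2bp1 it ran from 0.0428 to 0.153, with 3.21 to 25.2% of genes above it. Igf2bp2 and Igf2bp3 ran from 0.00968 to 0.0677 and from 0.0186 to 0.146. Lin28a, Lin28b and Trim71 were seen in at most 16.2, 28.1 and 23.5% of the tissue pixels of any library and are not compared with the others on this measure. Trim71 had its highest I, 0.155, in the E12 section, where 3.91% of pixels held a count. In the other 10 libraries it ran from -0.00244 to 0.0421.

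**Figure D5:**
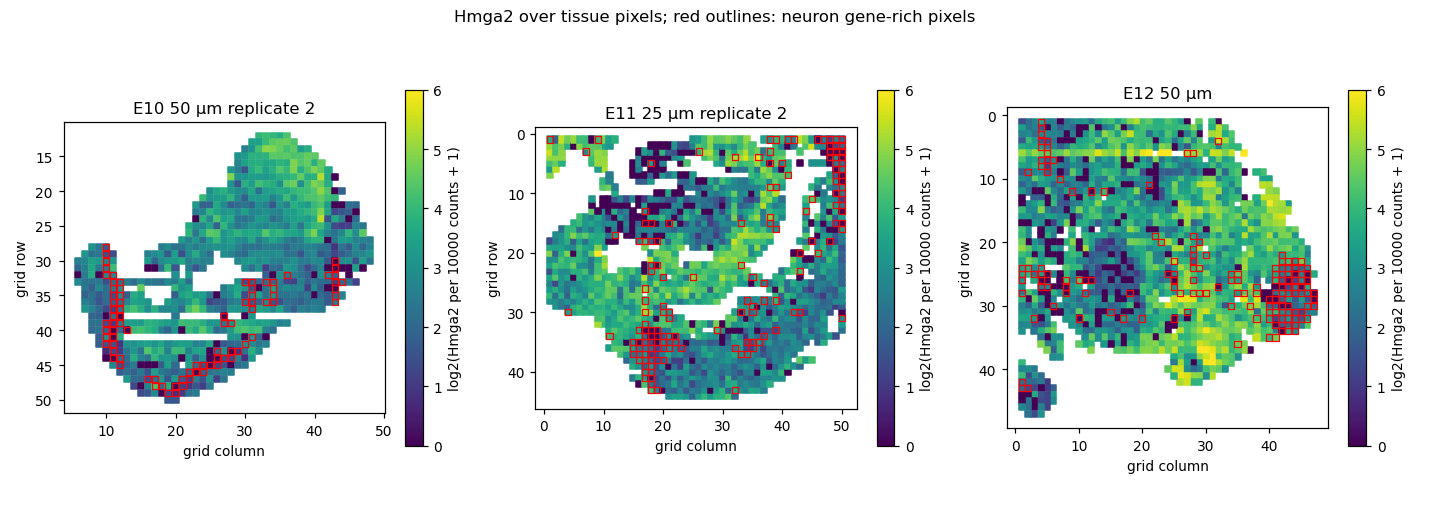
Hmga2 as log2(counts per 10000 counts + 1) over the tissue pixels of 3 sections (axes: grid column and grid row), with neuron gene-rich pixels outlined in red. Outlined pixels have a median of 2.49, 4.65 and 5.30 Hmga2 counts per 10000, against 6.31, 7.52 and 10.3 in the other pixels of the same sections.

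The map of E12 showed 1 grid row, row 6, in which Hmga2 stood at 3382 CPM over 32 pixels, against 1181 and 899 CPM in the rows beside it. A grid row is the track of 1 barcode channel. The median counts per pixel were 3484 in that row and 3493 and 2176 in its neighbours. Without this row Hmga2 stood at 1204 CPM at E12, its log2 fold change from E10 was 1.12 and that of Lin28a was -3.04 (adjusted p 0.328 and 0.0340, edgeR), in an alternative chosen after the map was seen.

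Stage changes were also taken inside single pixel classes, since the sections cover different tissues. In neural progenitor gene-rich pixels 0 of 7 members were called by edgeR in each of the 4 comparisons (E11 against E10 pooled, with 10 µm alone and with 25 µm alone, and E12 against E10), where 1.12, 1.03, 0.233 and 0.641% of 12004 genes were. In mesenchyme and cartilage gene-rich pixels 0 of the 6 members tested were called, against 1.36, 1.19, 0.251 and 1.81% of 10755 genes, and Lin28a was too low to be tested. At an unadjusted p under 0.05, 3 members passed from E10 to E12 in the first class and 4 in the second. Of all genes, 972 of 12004 and 1030 of 10755 did so. From E10 to E11, 0 members passed in either class. There 1361 to 1678 of all genes passed in the first class and 1080 to 1482 in the second. Igf2bp1 had a log2 fold change to E12 of -1.63 in neural progenitor and of -1.31 in mesenchyme and cartilage gene-rich pixels (adjusted p 0.148 and 0.184, edgeR). Those of Lin28b were -1.81 (95% interval -3.62 to -0.01) on 4 counts at E12 and -2.79 (-4.73 to -0.86) on 2 counts. Those of Trim71 were -2.25 (-4.35 to -0.15) on 2 counts and -3.42 (-5.72 to -1.12) on 1 count, with adjusted p of 0.552 and 0.146 (edgeR). Lin28a, the member called over the whole tissue, had -1.85 (-4.04 to 0.34, adjusted p 0.740, edgeR) on 2 counts in neural progenitor gene-rich pixels, against -3.08 over the whole tissue. Igf2bp2 and Igf2bp3 had -0.11 and -0.32 in the first class and -0.30 and -0.15 in the second, and Hmga2 had 0.94 in the first. These fits used all 11 libraries, clustered or not. In E11 10 µm replicate 2 the neural progenitor list stood at 120 CPM and was not spatially clustered. In E10 25 µm replicate 1 the mesenchyme and cartilage score had a Moran's I of 0.166, under the threshold of 0.2. That is the single E10 library of this width, so the 25 µm and pooled comparisons in that class rest on it.

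The genes with patterns most like each member were found by Spearman's rho over blocks of 5 by 5 pixels within a library, taking the median over libraries. Blocks of a section share depth and neighbours, so these are descriptions. For Hmga2 they were Peg3, an imprinted zinc finger gene (median rho 0.58, from -0.32 to 0.80 in 11 libraries), Tgfb2, a growth factor (0.42), and Mdk, the heparin-binding growth factor midkine (0.40). With blocks of 4 by 4 pixels Peg3 and Mdk were again first and second (0.57 and 0.48), and Tgfb2 was at 0.28. For Igf2bp1 they were the nucleolar gene Npm1 (0.39), the splicing gene Snrpb (0.33) and the chromatin gene Nucks1 (0.33), at 0.24, 0.25 and 0.23 with the smaller blocks.

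The other members had weaker companions that moved with the block size. They were Hmgn1 (0.25), Map3k7 (0.24) and Fubp1 (0.24) for Igf2bp2, Tle4 (0.24), Fgfr1 (0.23) and Sf3a3 (0.23) for Igf2bp3, Eml5 (0.29) and Lhx2 (0.27) for Lin28b in 6 libraries, and Fbl (0.25), Pde4dip (0.23) and Greb1 (0.22) for Trim71 in 6 libraries. With the smaller blocks none of these but Lhx2 (0.22) stayed above 0.17. Lin28a had 100 counts in only 2 libraries and was left out. Between members rho was low. The highest median was 0.22, for Lin28b with Igf2bp3, but this pair was at 0.11 with the smaller blocks, where Hmga2 with Igf2bp1 was highest, at 0.20. Hmga2 with Igf2bp2 was at 0.17 and 0.20 and above 0 in 11 of 11 libraries with either block size.

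Beyond the 7 genes, a list of 20 other let-7 targets and a list of 18 genes of let-7 processing and silencing were read in the same fits. From E10 to E12, 0 of the 20 targets and 0 of the 18 processing genes were called by edgeR. The median log2 fold change was -0.68 over the targets, with 4 of 20 above 0, and -0.27 over the processing genes, with 3 of 18 above 0, against -0.04 over all genes. Among the targets the lowest and highest values, named after they were seen, were -1.65 for Nr6a1, an orphan nuclear receptor gene (adjusted p 0.0858), and 1.40 for Myc (0.229, edgeR). From E10 to E11 over both widths 0 of either list were called, with medians of -0.11 and -0.17 against 0.05 over all genes.

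In neuron gene-rich pixels, where 31.9% of all genes were called, 2 of 19 tested targets were higher, Nr6a1 (log2 fold change 1.07, adjusted p 2.07e-05) and Arid3b (0.35, 0.00594), and 3 were lower, Cdk6 (-0.79), Hmga1 (-0.37) and Cdc25a (-0.28), all named after their values were seen (edgeR). Of the 18 processing genes 3 were higher there, the Argonaute genes Ago1 (0.47) and Ago4 (0.86) and Tnrc6c (0.38), and 2 were lower, Ago2 (-0.40) and Khsrp (-0.21). The medians of both lists, -0.04 and -0.05, were at that of all genes, -0.05. In liver gene-rich pixels, where 19% of all genes were called, 5 of 20 targets were higher, led by Myc (1.53) and Cdk6 (1.05), and 3 were lower, among them Tgfbr1 (-1.13) and Ccnd2 (-1.03), while 0 of 17 processing genes were higher and 3 were lower, Ago1 (-0.75), Tnrc6c (-0.62) and Dicer1 (-0.52). The medians were 0.10 over the targets and -0.20 over the processing genes, against 0.01 over all genes. In both classes the called shares of the lists are near or below that of all genes, except for the liver targets, with 8 of 20.

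The let-7 hosts themselves were barely counted. Mir99ahg, the host transcript of let-7c-1, had 466 counts in all 11 libraries together and a log2 fold change of 1.14 from E10 to E12 (adjusted p 0.413, edgeR). The 7 let-7 hairpin columns had between 1 and 8 counts each over all libraries, which allowed no comparison.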

How the data were processed

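Each transcript file held counts per pixel and gene column, as deposited by the authors, as whole numbers and not normalised. Per the labels' protocols, libraries were made with Nextera XT and sequenced with paired reads on an Illumina HiSeq instrument. The submitters' processing notes name CASAVA 1.8.2 and GRCh38, a human build whose role is not stated. The aligner, the use of strand and the treatment of duplicate reads are not given in the sources used here. The 4 antibody libraries were not used.

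Counts were summed over tissue pixels (at least 0.1 of the 95th percentile of a library's counts per pixel) and fitted with edgeR 4.0.16 in R 4.3.3 (TMM scaling, filterByExpr, robust quasi-likelihood, 6 group means over 11 libraries), with Benjamini-Hochberg adjustment. The fit pools the spread of all groups, so groups of 1 library are assumed to vary like the others. Gene-rich pixels were the top 10% by log2(list counts per 10000 + 1), in libraries where Moran's I of that score over 4 neighbours was at least 0.2, and were fitted with library as a block. Maps and correlations were computed with Python 3.11.15 and scipy 1.17.1. The fits were tested on simulated data with independent counts and no differences in tissue make-up between sections, so that test does not cover such differences. For the pixel classes, changes were put only into genes with more counts than Lin28a, Lin28b and Trim71 had. Poisson intervals cover counting error only. Alternatives used DESeq2 1.42.0, other scalings, filters and pixel thresholds, and each library left out.

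The rule names all 7 members whether or not they pass. Those not described one by one are covered by a range or by the plots. Of the 2 pathway lists, genes called in a stage comparison were to be named, and others are marked as named after their values were seen. The genes most like a member are the 3 with the largest median rho, for members with 100 counts in at least 4 libraries. Of these, 1 gene is not reported here. The members and lists were chosen with earlier results of these data known. microRNA sequences are from RefSeq and sites from GENCODE M21, both on GRCm38. The counting annotation is not given in the sources used here.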

Additional observations from a re-analysis of the deposited data

How the results depend on the processing

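Over all alternatives 2643 values were recomputed: 325 counts of called members, of which 273 stayed within 1.5 times the reported count, and 2318 single values, of which 0 reversed in sign after a call, 59 lost a call and 24 gained one. From E10 to E12 the count of called members, 1, became 3 with DESeq2 and 3 with no filter on low counts. With the top 5% of pixels the count was 0 for the neural progenitor class, 1 for heart muscle and 3 for red cell. With the top 20% it was 0 for neural progenitor, 3 for mesenchyme and cartilage, 1 for heart muscle, and 1 for the change from E10 to E12 within mesenchyme and cartilage gene-rich pixels. With tissue pixels at 0.3 of the 95th percentile it was 0 for mesenchyme and cartilage and 0 for heart muscle. With all 11 libraries it was 0 for mesenchyme and cartilage, 0 for epithelium, 0 for heart muscle and 0 for liver, classes in which the added libraries had no clustered score. In mesenchyme and cartilage the called member, Lin28a, did not pass the filter with all 11 libraries, so that 0 is no lost test. With no scaling beyond library totals it was 3 for red cell and 1 for E10 to E12 within mesenchyme and cartilage gene-rich pixels. Without scaling the median over all genes moved from -0.03 to -0.22 in the red cell class, from 0.01 to -0.14 in liver and from 0.08 to -0.12 for E10 to E11 at 25 µm, against which changes there have to be read. For the other settings the cause was not tested. With 1 library left out at a time the count ran from 0 to 2 for E10 to E12, neural progenitor, mesenchyme and cartilage, heart muscle and red cell, was 2 for liver, 3 for neuron and 1 for epithelium, and ran from 0 to 1 for E10 to E12 within mesenchyme and cartilage. It stayed at 0 for the other comparisons.

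Over all genes, calls rose from 390 to 520 with DESeq2 and 1328 with no filter from E10 to E12, and ran from 98 to 969 with 1 library left out. From E10 to E11 with both widths pooled they rose from 656 to 1428 and 1988, with 10 µm alone from 608 to 968 and 1835, and with 25 µm alone from 83 to 388 and 671. Between 10 µm and 50 µm at E10 they rose from 20 to 413 and 731, between 10 µm and 25 µm at E11 from 378 to 561 and 870, and for the difference of the stage changes from 25 to 118 and 223. The replicate number of the E11 libraries could serve as a block only between 10 µm and 25 µm at E11. The deviations from the group means of E11 25 µm replicate 1 and E11 10 µm replicate 1 correlated at 0.0565 over 18233 genes. A single such value, between sections of unlike make-up, cannot show whether same-numbered sections share an embryo, which the labels do not give. The fit with this replicate block called 0 members, as did the fit without it. Leaving out grid row 6 of E12, chosen after seeing the data, changed no call of a member. Of 77 values of Moran's I, 14 moved at the stricter pixel threshold by at least the standard deviation of the gene's values over all 11 libraries. That yardstick mixes stages and pixel widths and is not a spread between replicates. Lin28a, Lin28b and Trim71 had 677, 1978 and 1680 counts in all, which limits what any class of pixels can show for them.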

Other observations

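Among genes outside the 7, the change from E10 to E12 was read against the number of CTACCTC matches in the longest annotated 3′ UTR. The median log2 fold change was -0.04 for 12628 genes with 0 matches, -0.04 for 1323 genes with 1, -0.07 for 156 genes with 2 and -0.21 for 24 genes with 3 or more. The median length of the 3′ UTR was 1077, 2200, 3522 and 4462 bases in these groups, so number of matches and length move together, and the part of length was not tested. From E10 to E11, with both widths pooled, the medians were 0.02, -0.04, -0.04 and -0.36, with quartiles of -0.58 and 0.14 in the last group.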
